A study of Mus musculus with 12 samples.

Results

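Deoxynucleotides, the building blocks of DNA, are made by enzymes that also keep uracil out of DNA, and the data here cover 9 genes of this system in mouse tumours. The genes are Ung, Dctpp1, Dut, Tk1, Tyms, Rrm1, Rrm2, Rrm2b and Dck, 9 of 12393 genes measured, and they were chosen by name: every probe set that carried 1 of these symbols alone was taken, 17 of 20380. No threshold was set on their values, but they were picked with earlier results of these arrays known. In those results Ung, Dctpp1 and Tk1 were already low after CP-Dox compared with PBS, so the values of the 9 genes in that comparison are a description. Calls of the fit over all genes are counted for them there, with no p-value, and nothing is read from those counts.

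RNA came from 12 tumours of C26, a mouse colon carcinoma cell line, grown under the skin of the flank of Balb/c mice aged 6 weeks. Mice were treated on day 8 after inoculation, at a tumour size of about 50 mm3, and tumours were taken 48 h later, with 4 mice in each of 3 groups. The groups received CP-Dox, which is doxorubicin attached to a chimeric polypeptide carrier, or free doxorubicin (Dox), or phosphate-buffered saline (PBS). Doxorubicin intercalates into DNA and traps topoisomerase II. No group given the carrier alone was analysed here, so that effects of drug and carrier cannot be told apart, and no source used here gives the dose. Each tumour was hybridized to 1 short-oligonucleotide array, which gives signals processed by RMA, in log2 units, where a difference of 1 is a 2-fold change. Signals of different probe sets are not comparable as levels, and precision is limited by how few arrays there are.

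The tumour pieces differed in ways that touch the results. CP-Dox replicate 2 stood apart, its correlation with its own group averaging 0.948. For the rest of that group the average was 0.971 to 0.977, and for Dox and PBS arrays it was 0.981 to 0.990. The mean of 18 keratinocyte markers lay 2.41 and 3.50 above the PBS mean in CP-Dox replicates 1 and 3 and between -0.16 and 0.12 in the other 10 arrays. The mean of 18 skeletal muscle markers, relative to the PBS mean, ranged from -0.72 to 1.65 in CP-Dox tumours, from -2.39 to 1.54 in Dox tumours and from -2.50 to 3.31 in PBS tumours, and Dox replicate 2 was the only Dox tumour above -2.34. Of 17 measured markers of colon epithelium, 15 had a mean signal under the median gene (7.60), among them Cdx1 (4.25), Vil1 (4.42) and Epcam (6.07), while the keratin genes Krt8 (10.35) and Krt18 (7.77) lay above it. Since signals of different probe sets are not comparable as levels, this gives only a rough reading of the labelled tissue. In tissue RNA, fewer cells of a type and less RNA per cell cannot be told apart.

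Ribonucleotide reductase converts ribonucleotides to deoxyribonucleotides. It pairs a large subunit, encoded by Rrm1, with a small subunit, encoded by Rrm2 in S phase or by the p53-inducible gene Rrm2b. Dut encodes dUTPase, which breaks down dUTP to dUMP, and Tyms encodes thymidylate synthase, which methylates dUMP to dTMP with a folate cofactor. Tk1 and Dck encode kinases that salvage thymidine and deoxycytidine, Dctpp1 encodes a pyrophosphatase that removes dCTP and modified deoxycytidine triphosphates, and Ung encodes the glycosylase that cuts uracil out of DNA. Several of these genes are textbook targets of E2F factors at the start of S phase.

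The promoter windows of Ung, Dctpp1, Tk1 and Rrm2 are shown because the first 3 were low in all 4 CP-Dox tumours, whereas the Rrm2 difference depended strongly on 1 tumour, CP-Dox replicate 2. Tk1 was also far lower in that tumour, at -1.13 from the mean of the other CP-Dox tumours. Sequences are from RefSeq on build GRCm38.p6, were found for 8 of the 9 genes, and run from 250 bases before to 50 bases after an annotated start, on the strand of the gene. Capitals mark matches, on either strand, to the GC box GGGCGG and the CCAAT box CCAAT. The E2F-type core TTTNNCGC was searched for as well and had no match in these 4 windows. None of the marked matches overlapped another.
Ung, chr5:114130185-114130484, plus strand: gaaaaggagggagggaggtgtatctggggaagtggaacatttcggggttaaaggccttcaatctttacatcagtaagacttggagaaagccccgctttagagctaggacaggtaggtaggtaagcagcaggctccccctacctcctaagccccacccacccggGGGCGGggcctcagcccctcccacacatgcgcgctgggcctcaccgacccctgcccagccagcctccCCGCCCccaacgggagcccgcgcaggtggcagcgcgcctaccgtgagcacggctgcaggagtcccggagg
Dctpp1, chr7:127260618-127260917, minus strand: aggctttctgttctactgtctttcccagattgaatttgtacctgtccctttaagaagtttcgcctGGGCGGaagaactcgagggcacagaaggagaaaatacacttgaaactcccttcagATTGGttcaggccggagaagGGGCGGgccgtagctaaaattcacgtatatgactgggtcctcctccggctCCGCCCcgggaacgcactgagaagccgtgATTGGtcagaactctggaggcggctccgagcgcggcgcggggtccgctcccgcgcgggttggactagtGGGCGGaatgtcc
Tk1, chr11:117825965-117826264, minus strand: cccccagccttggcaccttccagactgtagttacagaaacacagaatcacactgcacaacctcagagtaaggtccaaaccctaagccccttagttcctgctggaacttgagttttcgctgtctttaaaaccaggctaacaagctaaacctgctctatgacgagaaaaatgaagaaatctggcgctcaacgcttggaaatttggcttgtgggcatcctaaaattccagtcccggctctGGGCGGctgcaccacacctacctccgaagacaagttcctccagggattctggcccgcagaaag
Rrm2, chr12:24708004-24708303, plus strand: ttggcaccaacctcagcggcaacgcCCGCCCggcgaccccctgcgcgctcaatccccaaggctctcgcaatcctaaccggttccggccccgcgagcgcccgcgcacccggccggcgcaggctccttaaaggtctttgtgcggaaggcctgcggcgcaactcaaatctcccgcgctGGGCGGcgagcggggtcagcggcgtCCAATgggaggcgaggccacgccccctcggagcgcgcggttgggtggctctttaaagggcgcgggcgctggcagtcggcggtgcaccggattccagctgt

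The Ung window held 2 GC boxes and no CCAAT box, that of Dctpp1 4 GC boxes and 2 CCAAT boxes, that of Tk1 1 GC box, and that of Rrm2 2 GC boxes and 1 CCAAT box. Among the other 4 windows, Rrm1 (chromosome 7) had 2 CCAAT boxes and 0 GC boxes, Dck (chromosome 5) had 6 GC boxes, Dut (chromosome 2) had 1, and Tyms (chromosome 5) had 1 GC box and the 1 E2F-type core found, as TTTGTCGC beginning 42 bases after the start. Of 32851 promoter windows in the same table, 35.7% held the GC box, 37.4% the CCAAT box and 5.17% the E2F-type core. A gene can have other starts than the one shown, and Ung and Dut each make a nuclear and a mitochondrial protein.

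In the uracil pathway, Ung had the lowest values of the CP-Dox group relative to the others. Its signal was 6.17, 5.94, 6.45 and 6.58 in the 4 CP-Dox tumours, 7.93, 7.35, 8.05 and 7.96 in the Dox tumours, and 8.03, 7.88, 8.17 and 8.25 in the PBS tumours. Every CP-Dox tumour lay below every Dox and PBS tumour, and replicate 2 was the lowest of each of these 3 groups. The difference of CP-Dox minus PBS was -1.80 ± 0.18 on the log2 scale (± standard error of the limma fit, n = 4 each, as for all later differences), a 3.47-fold lower signal, the fourth lowest difference of all 12393 genes. Ung read 6.17 and 6.45 in the CP-Dox tumours with high keratinocyte markers and 5.94 and 6.58 in the others, and with the keratinocyte mean as a covariate, chosen after the data were seen, its difference from PBS was -1.84.

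Dctpp1 showed the same order of groups. It stood at 8.71, 8.73, 8.95 and 9.0 in CP-Dox tumours, at 9.82, 9.34, 9.96 and 9.76 in Dox tumours, and at 10.02, 9.79, 10.36 and 10.86 in PBS tumours. The CP-Dox values lay close together and did not overlap with those of Dox or PBS, whereas Dox and PBS overlapped. The mean was lower in CP-Dox than in PBS tumours, with a difference of -1.41 ± 0.21 or a 2.65-fold lower signal. CP-Dox replicate 2, which stood apart on other genes, was not the lowest here.

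For Dut, the probe set with the stronger signal read 10.00, 9.43, 9.99 and 10.03 in CP-Dox tumours, 10.70, 10.06, 10.75 and 10.43 in Dox tumours, and 10.80, 10.74, 10.67 and 10.95 in PBS tumours. CP-Dox differed from PBS by -0.93 ± 0.17, with no overlap, and replicate 2 was the lowest of each drug group. The other Dut probe set, at 5.39 to 5.77 in CP-Dox, 6.06 to 6.32 in Dox and 6.12 to 6.50 in PBS tumours, differed by -0.66 ± 0.11 between CP-Dox and PBS and did not overlap either.

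**Figure D1:**
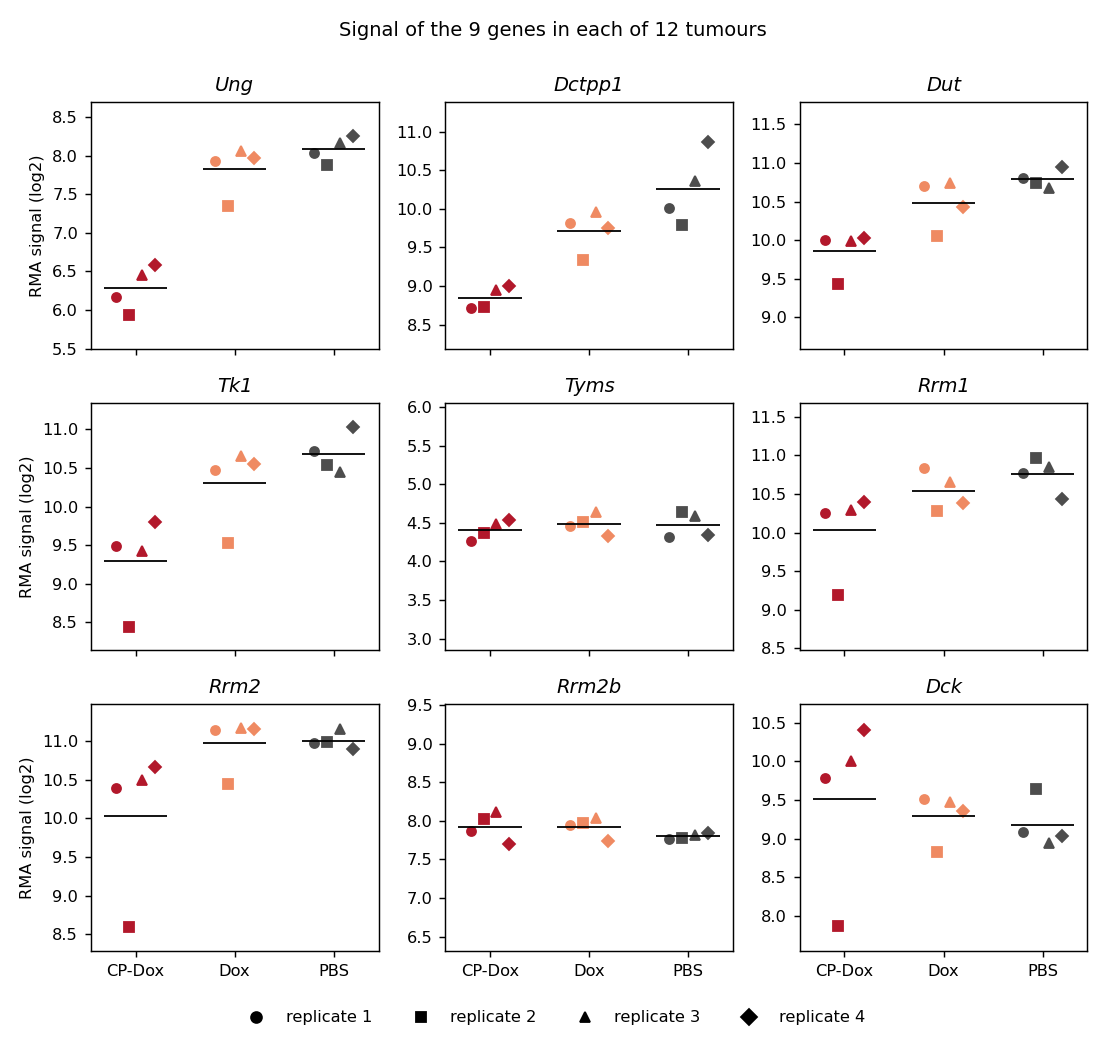
RMA signal (log2, y axis) of the 9 genes in CP-Dox, Dox and PBS tumours, with the probe set of highest mean for each gene. Points are single tumours, symbols the replicate number and bars group means, and every panel spans 3.2 log2 units. Ung and Dctpp1 are low in all 4 CP-Dox tumours. Tk1, Rrm1, Rrm2 and Dck have 1 CP-Dox tumour, replicate 2, far below the other 3.

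Of the thymidylate genes, Tk1 was low in CP-Dox tumours and Tyms was barely measured. Tk1 was at 9.48, 8.45, 9.43 and 9.81 in CP-Dox tumours, at 10.48, 9.53, 10.65 and 10.56 in Dox tumours, and at 10.72, 10.54, 10.45 and 11.04 in PBS tumours. All CP-Dox values lay below all PBS values, and Dox replicate 2 lay within the CP-Dox range. The mean difference was -1.39 ± 0.30 in CP-Dox against PBS, a 2.63-fold lower signal, and without CP-Dox replicate 2 it was -1.11.

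The 3 probe sets of Tyms gave signals between 4.04 and 4.64 in all 12 tumours. Their means stood at the percentiles 6.60, 4.61 and 3.54 of all probe sets, so that they hold little about this gene. Their differences between CP-Dox and PBS were -0.06 ± 0.11, -0.11 ± 0.07 and -0.10 ± 0.08. A brighter probe set is annotated to both Tyms and its pseudogene Tyms-ps and cannot be assigned to either. It read 8.35 to 8.87 in CP-Dox, 8.60 to 9.41 in Dox and 9.44 to 9.91 in PBS tumours, so that CP-Dox and PBS did not overlap.

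The ribonucleotide reductase subunits parted. Rrm2 read 10.40, 8.59, 10.50 and 10.67 in CP-Dox tumours, 11.14, 10.44, 11.17 and 11.16 in Dox tumours, and 10.98, 10.99, 11.16 and 10.90 in PBS tumours. All CP-Dox values were below all PBS values, but replicate 2 differed by -1.93 from the mean of the other 3 CP-Dox tumours. The mean difference between CP-Dox and PBS was -0.97 ± 0.38 with all arrays and -0.49 without that tumour. The other 2 probe sets of Rrm2 gave -0.83 ± 0.37 and -0.81 ± 0.34, and in both replicate 2 was again the lowest.

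Rrm1 followed Rrm2 with smaller differences. Its values were 10.25, 9.19, 10.30 and 10.40 in CP-Dox tumours, 10.84, 10.28, 10.66 and 10.38 in Dox tumours, and 10.78, 10.97, 10.85 and 10.44 in PBS tumours. CP-Dox and PBS just missed overlapping, at 10.40 and 10.44, and on the second Rrm1 probe set they overlapped. The mean difference was -0.73 ± 0.25 and, without CP-Dox replicate 2, -0.44.

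Rrm2b, the small subunit gene known as a p53 target, hardly differed. It stood at 7.87, 8.02, 8.11 and 7.70 in CP-Dox tumours, at 7.94, 7.97, 8.03 and 7.73 in Dox tumours, and at 7.76, 7.77, 7.82 and 7.85 in PBS tumours. The groups overlapped, and the difference between CP-Dox and PBS was 0.12 ± 0.10, with a 95% confidence interval from -0.09 to 0.34. In the same arrays 10 of 25 measured p53 targets rose in CP-Dox against PBS and 0 fell (limma, adjusted p under 0.05), where 2.35% of all genes rose. Among them were the cell cycle inhibitor gene Cdkn1a (1.50 ± 0.27), the p53 antagonist gene Mdm2 (1.35 ± 0.26) and Ccng1, which encodes cyclin G1 (1.72 ± 0.21). Without CP-Dox replicate 2, 16 of the 25 rose, beside 1227 of 12393 genes. Relative to the PBS mean, the list averaged 0.155 to 0.514 over Dox tumours and -0.121 to 0.149 over PBS tumours. In Dox against PBS, 0 of the 25 were called and 7 had an unadjusted limma p under 0.05, beside 558 of 12393 genes. This list too was chosen with earlier results of these data known. Rrm2b has 1 probe set on this array, so that no second reading was at hand.

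Dck varied most within the CP-Dox group, with an SD of 1.13. Its signal was 9.78, 7.87, 10.00 and 10.41 in CP-Dox tumours, 9.52, 8.83, 9.48 and 9.36 in Dox tumours, and 9.09, 9.65, 8.94 and 9.04 in PBS tumours. CP-Dox replicates 1, 3 and 4 were above every Dox and PBS tumour, and replicate 2 was below all of them. The difference between CP-Dox and PBS was 0.34 ± 0.44 with all arrays and 0.89 without replicate 2. There Dck was called higher, as were 1227 of 12393 genes. The 2 other probe sets did not separate the groups: CP-Dox replicate 1, at 8.85 and 7.58, lay within the PBS ranges of 8.48 to 9.13 and 7.24 to 8.21.

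Read over the 9 genes, CP-Dox against PBS gave a median difference of -0.93, beside -0.04 over all genes, with 4 members called lower (Ung, Dctpp1, Dut and Tk1) and 0 higher by limma at an adjusted p under 0.05. The same threshold called 5.58% of all genes, 3.23% lower and 2.35% higher, and with each array centred on its median 503 genes were lower and 216 higher in place of 400 and 291. Of the 9, 6 were lower without overlap between the groups, as were 7.75% of all genes. Since the genes were chosen with this comparison known, these counts describe the list and test nothing. The Tk1 call was lost without CP-Dox replicate 1 or 3 or PBS replicate 1, 3 or 4, with differences from -1.47 to -1.28, and with only these 2 groups fitted (-1.39). With the keratinocyte covariate 1 member was called (Ung) and 49 genes in all, while Dctpp1 was at -1.41, Dut at -1.04 and Tk1 at -1.52.

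Free doxorubicin was compared with PBS to ask whether the unbound drug gave the same differences after 48 h. None of the 9 genes was called, and limma called 0 of 12393 genes (0%) at an adjusted p under 0.05, with 558 genes and 1 member, Dctpp1, at an unadjusted p under 0.05. Dctpp1 differed by -0.54 ± 0.21, with a 95% interval from -0.99 to -0.08 (limma adjusted p = 0.995). Ung differed by -0.26 ± 0.18 (interval -0.64 to 0.13), Dut by -0.31 ± 0.17 and Tk1 by -0.38 ± 0.30 (limma adjusted p = 0.995 for each). Rrm1 and Rrm2 were at -0.22 ± 0.25 and -0.03 ± 0.38, Rrm2b and Dck at 0.12 ± 0.10 and 0.12 ± 0.44, and Tyms at 0.01 ± 0.11. Dox and PBS overlapped on all 9 genes, while 3.84% of all genes had no overlap. The sign for Rrm2 turned with single tumours: it was 0.02 without PBS replicate 3 and 0.15 without Dox replicate 2, in which Ung, Dctpp1, Dut, Tk1, Rrm1, Rrm2 and Dck were each the lowest of the Dox group.

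CP-Dox was set directly against Dox to ask whether the bound and the free drug differed. Ung was 2.91-fold lower in CP-Dox tumours, a difference of -1.54 ± 0.18 (95% interval -1.92 to -1.16, limma adjusted p = 0.0117), in 4 of 4 tumours. It was the 1 of 9 members called, where 0.169% of all genes were called lower and 0.226% in either direction. This comparison uses the same CP-Dox tumours in which Ung was already known to be low. The call was lost without CP-Dox replicate 1 or Dox replicate 1 or 3, with adjusted p from 0.00424 to 0.0731 over the 12 fits that leave out 1 array, while the difference lay between -1.70 and -1.42. It was also lost when only the 8 arrays of these groups were fitted (limma adjusted p = 0.0857) and with the keratinocyte covariate, where the difference was -1.58 (limma adjusted p = 0.108). Over all alternatives the adjusted p of Ung ranged from 0.000455 to 0.108.

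The other 8 members did not pass against Dox in the fit with all arrays weighted equally and no covariate. Dctpp1 was at -0.87 ± 0.21 and Dut at -0.62 ± 0.17, both without overlap between the groups (limma adjusted p = 0.105 and 0.138), which 6.34% of all genes shared in this direction. Tk1 was at -1.01 ± 0.30 (limma adjusted p = 0.170) and Rrm2 at -0.94 ± 0.38 (limma adjusted p = 0.267), each overlapping because of Dox replicate 2. Rrm1 differed by -0.51 ± 0.25 and Dck by 0.22 ± 0.44. Tyms and Rrm2b were at -0.07 ± 0.11 and 0.00 ± 0.10, and the interval for Rrm2b ran from -0.21 to 0.22. Without CP-Dox replicate 2, Dctpp1 (-0.83) passed the threshold as a fall and Dck (0.77) as a rise. That fit called 1150 of 12393 genes, beside 28 with all arrays. With arrays weighted by their quality, Dctpp1 (-0.96), Dut (-0.62), Tk1 (-0.96) and Rrm2 (-0.69) passed as falls as well as Ung, among 1960 genes called. With the G2/M list mean as a covariate, added after the data were seen, 849 genes were called. Among them Dctpp1 (-0.85), Dut (-0.51) and Rrm2 (-0.58) passed as falls besides Ung, and Dck (0.63) as a rise. The 3 comparisons share arrays: for Ung, CP-Dox against PBS gave -1.80 and Dox against PBS -0.26, with the same PBS tumours in both.

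**Figure D2:**
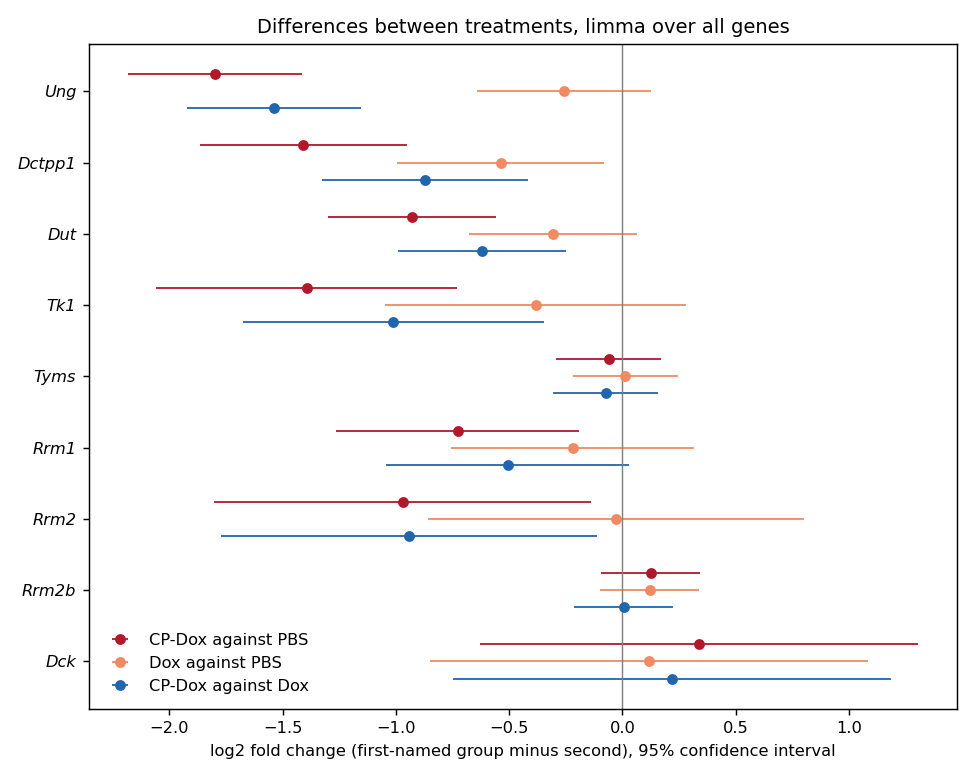
Log2 fold change (x axis, first-named group minus second) of the 9 genes in the 3 comparisons, with 95% confidence intervals from the limma fit over all 12393 genes and 4 tumours per group. For Ung the CP-Dox comparisons lie at -1.80 and -1.54 and Dox against PBS at -0.26, while Tyms and Rrm2b lie near 0 in all 3.

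The members differed by degrees in how far CP-Dox replicate 2 lay from the mean of the other 3 CP-Dox tumours. In that tumour, relative to this mean, Rrm2b was at 0.12, Tyms at -0.05, Dctpp1 at -0.16, Ung at -0.46 and Dut at -0.57. Tk1 and Rrm1 were both at -1.13, Rrm2 at -1.93 and Dck at -2.20. The mean of 19 genes of G2/M and proliferation lay at -1.73 in replicate 2, and at -0.17, -0.31 and -0.16 in CP-Dox replicates 1, 3 and 4, relative to the PBS mean. The mean of 25 S phase genes lay at -1.57 in replicate 2, while replicates 1, 3 and 4 ranged from -0.46 to -0.38. In those same 3 tumours Ung was at -1.91, -1.63 and -1.50 relative to the PBS mean. With the G2/M mean as a covariate, CP-Dox against PBS gave -1.60 for Ung and -1.37 for Dctpp1, against -1.80 and -1.41 without it. For Tk1 it gave -0.93 in place of -1.39, for Rrm1 -0.26 in place of -0.73, for Rrm2 -0.22 in place of -0.97, and for Dck 1.21 in place of 0.34. Dck was then called higher, as were 1266 of 12393 genes. The lowest G2/M mean by far was that of CP-Dox replicate 2, and no other measure of the cell cycle was taken as a covariate.

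**Figure D3:**
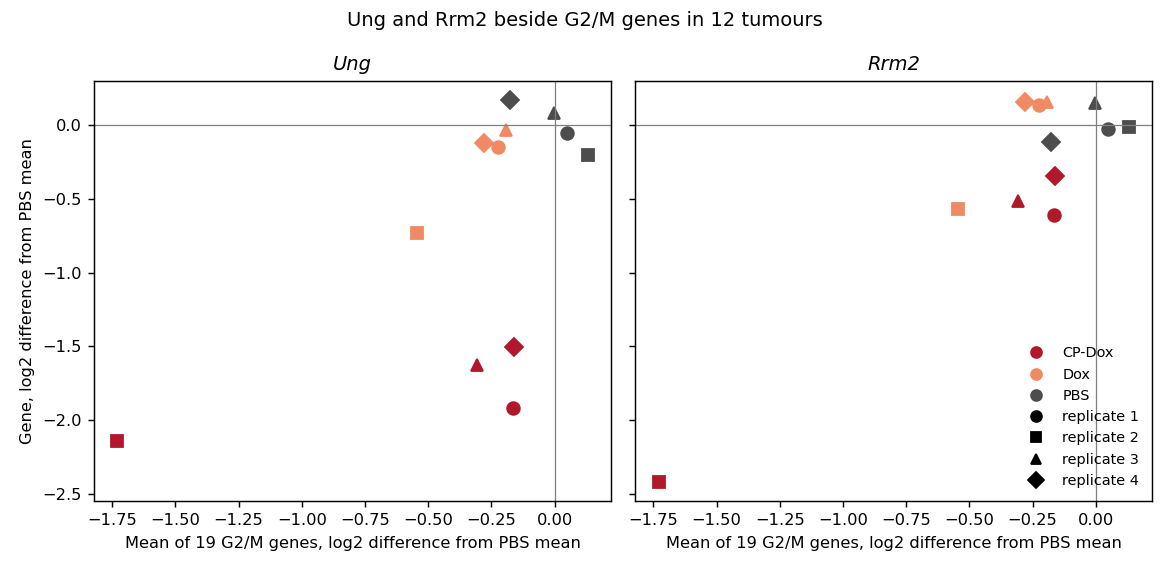
Difference of each of 12 tumours from the PBS mean (log2) for Ung (left, y axis) and Rrm2 (right, y axis), against the mean of 19 G2/M genes (x axis, log2). CP-Dox replicates 1, 3 and 4 have G2/M values from -0.31 to -0.16, with Ung at -1.91 to -1.50, and CP-Dox replicate 2, at -1.73 on the x axis, lies far from the others in height for Rrm2 but not for Ung.

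Markers of other cells also differed between CP-Dox and PBS tumours, and some between Dox and PBS tumours. These lists were chosen with earlier results of these data known. In CP-Dox against PBS, 2.35% of all genes rose and 3.23% fell. The mean of 13 mast cell markers was 1.10 to 1.82 above the PBS mean in CP-Dox tumours, against -0.43 to 1.06 in Dox and -0.40 to 0.31 in PBS tumours, and 11 of 13 rose against PBS. The mean of 14 endothelial markers was 0.41 to 0.65 above it in CP-Dox tumours, against 0.00 to 0.27 in Dox and -0.18 to 0.15 in PBS tumours, with 3 rises. The mean of 10 neutrophil markers was 0.19 to 1.13 in CP-Dox, -0.06 to 0.96 in Dox and -0.13 to 0.14 in PBS tumours, with 2 rises. The median difference of these 10 genes between CP-Dox and PBS was 0.01. For 13 fibroblast markers the mean was 0.17 to 0.62 in CP-Dox, -0.20 to 0.26 in Dox and -0.15 to 0.13 in PBS tumours, with 2 rises. The mean of 6 erythroid markers was -0.48 to -0.25 in CP-Dox, -0.41 to -0.20 in Dox and -0.09 to 0.18 in PBS tumours, with 1 fall. This mean was thus low in both drug groups, and 5 of these 6 genes had a mean signal under 6. The median difference of the 6 genes was -0.21 in CP-Dox against PBS and -0.02 in Dox against PBS. In the latter, 1 of the 6 had an unadjusted limma p under 0.05. Of 14 macrophage markers 0 passed in CP-Dox against PBS, with 3 at an unadjusted p under 0.05, beside 2914 of 12393 genes. Their mean was -0.47 to 0.22 in CP-Dox, 0.14 to 0.33 in Dox and -0.11 to 0.12 in PBS tumours. In Dox against PBS, 0 of the 14 had an unadjusted p under 0.05. For 16 markers of T cells and natural killer cells the mean was -1.37 in CP-Dox replicate 2, while CP-Dox replicates 1, 3 and 4 stood at 0.72 to 1.25. No marker can be at 0 on this scale, and the part of these cells in the members' values was not tested. With the skeletal muscle mean as a covariate, chosen after the data were seen, the 4 members called in CP-Dox against PBS were called as well.

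Genes next to the 9 in the same pathways were read from lists of known function. These lists, and those in the paragraphs that follow, were chosen with earlier results of these data known. Their counts in CP-Dox against PBS therefore describe them and test nothing. In that comparison 3.23% of all genes were called lower and 2.35% higher. Against Dox the shares were 0.169% and 0.0565%. Without CP-Dox replicate 2, 1136 of 12393 genes were called lower and 1227 higher against PBS. In that fit 559 were lower and 591 higher against Dox. With all arrays, 2914 genes had an unadjusted limma p under 0.05 against PBS and 1991 against Dox. For the folate cycle that feeds thymidylate synthase, 6 of 8 measured genes fell in CP-Dox against PBS and 0 rose (limma, adjusted p under 0.05), with a median of -0.68 beside -0.04 over all genes. They were the serine hydroxymethyltransferase genes Shmt2 (-1.19 ± 0.17) and Shmt1 (-1.10 ± 0.21), Mthfd2 (-1.20 ± 0.25) and Mthfd1 (-0.61 ± 0.13) of the mitochondrial and cytosolic one-carbon pathways, the reduced folate carrier gene Slc19a1 (-0.75 ± 0.13) and the folylpolyglutamate synthase gene Fpgs (-0.53 ± 0.13). Relative to the PBS mean, the list averaged -0.67 to -0.43 over CP-Dox tumours, with replicate 2 at -0.55, against -0.16 to 0.19 over PBS tumours. Against Dox, Shmt2 fell (-1.02 ± 0.17, limma adjusted p = 0.0499), 1 of the 8, and without CP-Dox replicate 2, 5 fell and 1 rose against Dox and 6 fell and 1 rose against PBS.

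Among the steps after uracil is cut out, 5 of 14 genes fell and 0 rose in CP-Dox against PBS, with a median of -0.47. They were Apex1 (-0.73 ± 0.11), which encodes the endonuclease that cuts at the abasic site, the DNA polymerase delta subunit gene Pold2 (-0.86 ± 0.11), Pcna, the polymerase clamp gene (-0.65 ± 0.15), and the repair genes Parp1 (-0.49 ± 0.13) and Xrcc1 (-0.44 ± 0.10). Without CP-Dox replicate 2, 6 fell, beside 1136 of 12393 genes, and the median was -0.24. Against Dox, 0 of the 14 passed by limma, with 8 at an unadjusted p under 0.05, beside 1991 of 12393 genes. Without that replicate 3 fell against Dox, beside 559 of all genes. Of the other base excision glycosylases, 0 of 6 measured passed in CP-Dox against PBS. Of these 6, 1 had an unadjusted p under 0.05, beside 2914 of 12393 genes. The largest difference was that of Neil3, at -0.62 ± 0.24 (limma adjusted p = 0.157). Mutyh was at -0.30 ± 0.14. Smug1 and Tdg, which encode other glycosylases that act on uracil, were not analysed here, for want of a probe set listed under their symbol alone.

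Other genes of deoxynucleotide supply moved both ways. Of 14 measured, 4 fell in CP-Dox against PBS and 1 rose: the nucleoside transporter gene Slc29a1 (-0.69 ± 0.09), the nucleoside diphosphate kinase genes Nme1 (-0.71 ± 0.11) and Nme6 (-0.47 ± 0.12) and the guanylate kinase gene Guk1 (-0.50 ± 0.12) fell, while the adenylate kinase gene Ak1 (1.13 ± 0.16) rose. Ak1 also rose against Dox (0.94 ± 0.16, limma adjusted p = 0.0499), where 0.0565% of all genes rose. Without CP-Dox replicate 2 the list had 2 rises and 5 falls against PBS, and 2 rises and 3 falls against Dox. Ak1 is abundant in skeletal muscle, whose markers varied between the tumours, and the part of muscle in its difference was not tested. Of 16 genes that break down or clean up nucleotides, 1 fell in CP-Dox against PBS, Nudt5, which encodes a nucleotide hydrolase (-0.61 ± 0.12), and 0 rose. Without CP-Dox replicate 2, 5 of the 16 rose and 2 fell against PBS, beside 1227 and 1136 of 12393 genes. In the same fit 4 rose against Dox, beside 591 of all genes. With all arrays 0 passed against Dox and 2 had an unadjusted p under 0.05, beside 1991 of all genes.

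Of 25 S phase and E2F-regulated genes, 5 fell in CP-Dox against PBS, with a median of -0.68: the cyclin E genes Ccne2 (-1.69 ± 0.33) and Ccne1 (-0.78 ± 0.14), the transcription factor gene E2f1 (-0.65 ± 0.13), the histone mRNA-binding protein gene Slbp (-0.60 ± 0.13) and the chromatin assembly factor gene Chaf1b (-1.07 ± 0.26). Without CP-Dox replicate 2 the median was -0.44 and 9 fell, beside 1136 of 12393 genes. Of the 19 G2/M genes, 1 fell, the cyclin A2 gene Ccna2 (-1.08 ± 0.21), and without that replicate 5 fell at a median of -0.28. Mki67 and Top2a, genes of proliferating cells, were at -0.72 ± 0.34 and -0.36 ± 0.44 and did not pass (limma adjusted p = 0.231 and 0.638). Against Dox, 0 of the S phase and 0 of the G2/M genes passed by limma. Of them, 11 and 2 had an unadjusted p under 0.05, beside 1991 of 12393 genes. Without CP-Dox replicate 2, 3 S phase genes fell and 3 G2/M genes rose, beside 559 and 591 of all genes. None of these lists had a call in Dox against PBS.

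**Figure D4:**
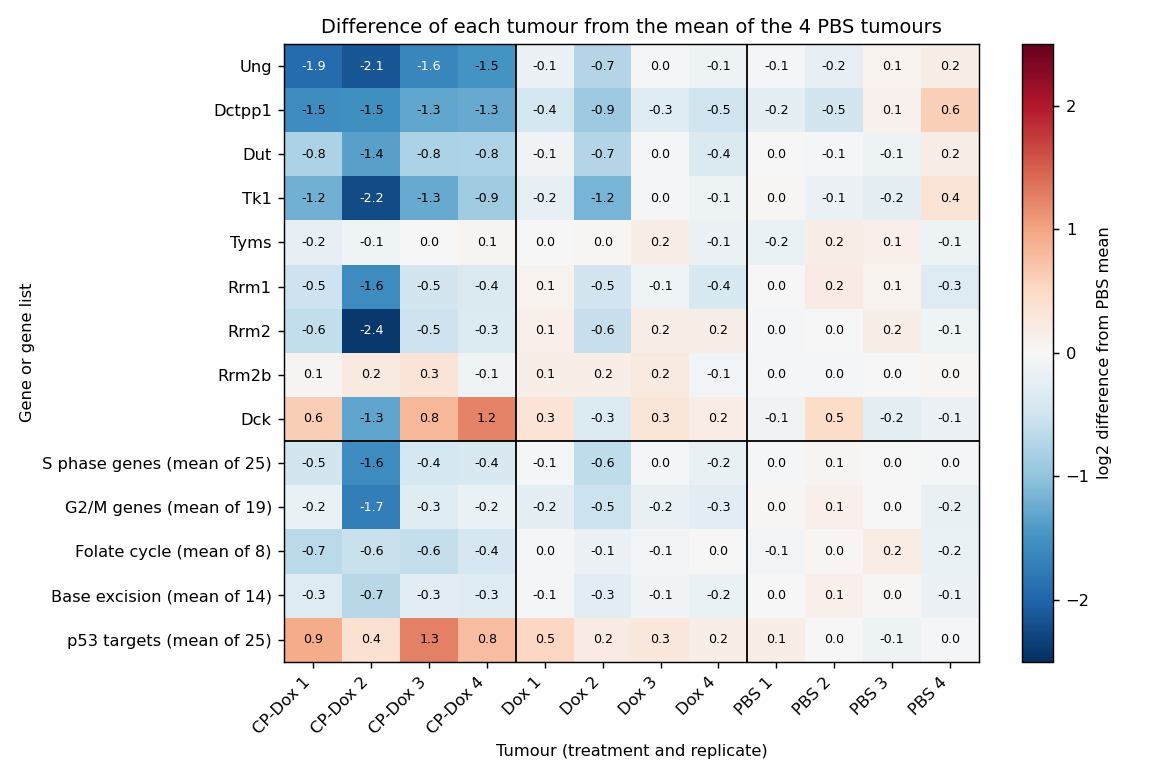
Difference of each tumour from the mean of the 4 PBS tumours (log2, colour and printed value) for the 9 genes and, below the line, the mean of 5 gene lists, in CP-Dox, Dox and PBS tumours. Ung, Dctpp1 and the folate cycle are low in all 4 CP-Dox tumours. In CP-Dox replicate 2, Tk1, Rrm1, Rrm2, Dck and the S phase and G2/M lists are far lower than in the other CP-Dox tumours. The S phase list (-0.46 to -0.38) and Rrm2 (-0.61 to -0.34) are below all PBS tumours in CP-Dox replicates 1, 3 and 4 too.

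The genes most like 3 of the members were ranked by Pearson correlation over the 12 tumours, which share treatment, tissue content and array processing. For Ung they were Tipin (r = 0.98), which encodes a replication fork protein, the DNA polymerase epsilon subunit gene Pole2 (0.96), the purine synthesis gene Adsl (0.96), the Ku70 gene Xrcc6 (0.96) and the histone variant gene H2ax (0.96). After the group means were taken out, r with Ung was 0.92 for both Tipin and Pole2, and 0.60, 0.46 and 0.59 for Adsl, Xrcc6 and H2ax. For Rrm2 they were the replication licensing gene Cdc6 (0.99) and Melk, Incenp, Shcbp1 and Ttk (0.98 each), of which Incenp and Ttk act in mitosis, with r from 0.98 to 0.99 after group means were taken out. CP-Dox replicate 2 lay farthest out for Rrm2, at -1.93 from the mean of the other CP-Dox tumours, and r without it was not computed. For Rrm2b, whose values all lay between 7.70 and 8.11, the genes most like it were Cpeb2 (0.91), Bpifb1 (0.86), Cd207 (0.85), Rab9 (0.84) and Spink4 (0.84).

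Among the members themselves, the deviations from group means went together most for Rrm2 and Dck (r = 0.94), Dut and Tk1 (0.94), Rrm1 and Dck (0.92) and Rrm1 and Rrm2 (0.91), over 12 tumours of which CP-Dox replicate 2 lay farthest out. Dctpp1 shared little with Rrm1 (0.02), Dck (0.14) or Rrm2 (0.29) in this respect. For Ung the values were 0.89 with Tk1, 0.83 with Dut and 0.77 with Dctpp1. Rrm2b had values between -0.37 and 0.22 with every other member.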

How the data were processed

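The deposited values are log2 signals that the authors made with RMA, per the submitters' processing notes, which also name Partek; RMA subtracts background, brings arrays to 1 distribution by quantiles and combines the probes of a set. No source used here gives versions or further steps. Of 22690 probe sets, 64 controls, 691 with several symbols and 1555 with none were left out, and for each of 12393 genes the probe set with the highest mean was used. The GRCm38.p6 gene table held the identifiers of 20351 of the 20380 probe sets left and changed 0 symbols. A model with a mean per group was fitted over all 12 arrays with limma 3.58.1 in R 4.3.3 (lmFit and eBayes), with two-sided p adjusted by Benjamini and Hochberg over all genes and a threshold of 0.05; it was tested on simulated data. No minimum signal or fold was applied.

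Titles gave the groups, and each replicate number is a mouse of its own. The members and lists were chosen with earlier results of these data known. Named were all 9 members, list genes past the threshold (up to 6 by lowest p, or the 2 lowest where none passed), the 5 genes most correlated with Ung, Rrm2 and Rrm2b, and Cdkn1a, Mdm2, Ccng1, Mki67, Top2a, Pcna and Smug1. Alternatives covered scaling, dim genes, probe set choice, variance model, array weights, arrays fitted, the replicate block and the threshold, and, added after the data were seen, 3 covariates. Figures used matplotlib 3.10.9.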

Additional observations from a re-analysis of the deposited data

Results flagged for a closer look

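Of 51 groups of 4 tumours tested over the 17 probe sets, 7 held a value whose gap to its neighbour was above the 95% critical value of Dixon's test, and chance gives about 5% of groups. CP-Dox replicate 2 was the low value in 5 of them: for Dut at 9.43, for Rrm1 at 9.19 and 8.76 on its 2 probe sets, and for Rrm2 at 8.59 and 8.43 on 2 of its 3 probe sets. Dox replicate 2 was the low value in the others, for Tk1 at 9.53 and for Rrm2 at 10.44. Probe sets of 1 gene are not independent readings of a tumour.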

How the results depend on the processing

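Of 672 values for single members under the alternatives, 622 kept their direction and their side of the threshold. Part of this was fixed in advance. The fold change itself cannot move with another variance model, another threshold or an array left out of the group not compared. Of the 622, 215 were for Dox against PBS, where no member was called in any fit. For CP-Dox against PBS, 691 genes were called with all arrays; the count was 1099 with probe sets as separate features, 2665 with array weights, 198 with only the 2 groups fitted, 143 at an adjusted p under 0.01, 49 with the keratinocyte covariate, 2364 with the G2/M covariate, and 214 to 2363 leaving out 1 array. In place of 4 of the 9 members, 1 was called with the keratinocyte covariate, 2 at 0.01, 3 with only the 2 groups fitted (without Tk1), 5 with array weights (also Rrm1, lower) or the G2/M covariate (also Dck, higher), and 3 to 5 leaving out 1 array, the 5 without CP-Dox replicate 2 and with Dck higher. For Dox against PBS the count of 0 became 2 after another quantile normalization or with only 2 groups fitted, 1 with the keratinocyte covariate, and 0 to 2 leaving out 1 array; in none of these was a member called. For CP-Dox against Dox, 28 genes (7 higher, 21 lower) became 43 with another quantile normalization, 47 without the dimmest 40% of genes, 1960 with array weights, 0 with only 2 groups, 53 with the muscle, 1 with the keratinocyte and 849 with the G2/M covariate, 1 at 0.01, and 1 to 1150 leaving out 1 array; with centred arrays 4 were higher and 33 lower. The 1 member became 5 with array weights or the G2/M covariate, 0 with only 2 groups, the keratinocyte covariate or the 0.01 threshold, and 0 to 3 leaving out 1 array. Nothing in the labels ties mice of 1 number together. Deviations from group means correlated from -0.31 to 0.51 over 12 same-numbered pairs (median 0.22) and from -0.46 to 0.46 over 36 others (median -0.06), and not every array correlated best with its own number, so that pairing was not taken as shown. With the replicate block, 8 genes were called in CP-Dox against Dox, 995 in CP-Dox against PBS and 0 in Dox against PBS, with 1, 4 and 0 members. Signs turned only where differences were small. For Dox against PBS, Tyms was -0.0323 as a mean of probe sets and -0.0386 to 0.0713 leaving out 1 array, Rrm2 was 0.0442 with array weights, 0.37 with the G2/M covariate and -0.092 to 0.151 leaving out 1 array, and Rrm1 was 0.024 with the G2/M covariate. For CP-Dox against Dox, Rrm2b was -0.0413 after quantile normalization, -0.0508 with centred arrays, -0.039 with array weights, -0.0184, -0.0746 and -0.0233 with the muscle, keratinocyte and G2/M covariates, and -0.0582 to 0.0788 leaving out 1 array, and Dck was -0.0732 with the keratinocyte covariate and -0.0774 to 0.77 leaving out 1 array. The cause of these changes was not tested. Tyms was removed by the filter on dim genes and has no value there.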
